A study of Mus musculus with 8 samples.

Results

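Nuclei of CA1 pyramidal neurons were picked from hippocampal single-nucleus multiome libraries by the unique molecular identifiers (UMIs, which count captured RNA molecules) of a few genes. Of 14297 barcodes in 4 libraries, 11518 were kept, with between 500 and 7000 detected genes, a mitochondrial share under 2% and, for the same barcode, an ATAC total of 1000 to 70000. A kept nucleus was a member when it held at least 1 UMI of at least 3 of the 8 genes Fibcd1, Wfs1, Wnt2, Pou3f1, Gm2115, Gm10754, 1700007F19Rik and 4921539H07Rik, at least 1 UMI of Slc17a7, at most 1 of Prox1 and at most 1 of Gad2. The rule gave 1146 CA1 nuclei, and the 10372 other kept nuclei were the comparison.

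The libraries came from dissected hippocampi of male wild-type C57BL/6J pups at postnatal day 21. Their dams ate a diet with 2 mg/kg folic acid (MF, libraries MF1 and MF2) or 20 mg/kg folic acid (HF, libraries HF1 and HF2) from 2 weeks before mating through pregnancy and lactation. No group carried an allele or a further treatment. The study calls the libraries of a diet biological replicates, and the number of pups and litters behind a library is not given in the sources used here. Each nucleus gave RNA counts and counts of Tn5 insertions into open chromatin (ATAC).

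CA1 pyramidal neurons receive glutamatergic input from CA3 through the Schaffer collaterals and from the entorhinal cortex, and carry much of the output of the hippocampus to the subiculum and cortex. Their synapses are a textbook model of long-term potentiation, in which NMDA receptors admit calcium and CaMKII and protein kinase C act on AMPA receptors. Slc17a7 encodes the vesicular glutamate transporter VGLUT1, Prox1 a homeodomain factor that marks dentate granule neurons, and Gad2 an enzyme that makes GABA in inhibitory neurons. Open chromatin marks promoters and enhancers that factors can reach, and a neuron type is known by the enhancers it opens as well as by its RNA.

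The chromatin that set CA1 nuclei apart lay mostly away from gene starts. The sequences below are the central 300 bases of regions that were more accessible in CA1 nuclei than in the other nuclei, read from the plus strand of mm10. They stand for the rule genes with the largest region differences and for regions with the highest log2 ratios. Gm2115 and 4921539H07Rik are shown by their region of highest log2 ratio, and Gm10754 by its called region with most CA1 insertions (log2 2.84). The Gm10754 region of highest log2 ratio (chr10:97940353-97940652, log2 3.03) is not printed and held none of the words searched. Capitals mark CAGATG (reverse CATCTG, the E-box bound by NeuroD factors) or TAATTA (a homeodomain core).
Gm10754 intron, chr10:97808061-97808360: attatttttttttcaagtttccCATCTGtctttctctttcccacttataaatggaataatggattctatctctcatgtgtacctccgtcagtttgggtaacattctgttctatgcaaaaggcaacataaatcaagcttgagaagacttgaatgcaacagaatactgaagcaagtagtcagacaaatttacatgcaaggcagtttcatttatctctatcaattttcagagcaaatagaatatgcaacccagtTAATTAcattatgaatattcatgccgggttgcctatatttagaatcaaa
Gm2115 intron, chr7:84551541-84551840: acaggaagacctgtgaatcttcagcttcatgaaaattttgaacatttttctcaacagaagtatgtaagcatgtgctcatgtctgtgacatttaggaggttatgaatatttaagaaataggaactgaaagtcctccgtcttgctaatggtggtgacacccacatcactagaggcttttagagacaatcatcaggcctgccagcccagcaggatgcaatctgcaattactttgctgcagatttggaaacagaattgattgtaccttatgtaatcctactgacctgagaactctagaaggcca
4921539H07Rik start, chr3:58116968-58117267: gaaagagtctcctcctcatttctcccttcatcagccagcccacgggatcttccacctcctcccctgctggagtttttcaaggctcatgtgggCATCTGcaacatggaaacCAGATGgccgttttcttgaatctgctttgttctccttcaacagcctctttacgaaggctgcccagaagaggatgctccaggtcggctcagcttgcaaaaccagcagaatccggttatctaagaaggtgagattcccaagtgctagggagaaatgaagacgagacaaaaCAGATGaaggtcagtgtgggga
No annotated gene, chr3:5451458-5451757: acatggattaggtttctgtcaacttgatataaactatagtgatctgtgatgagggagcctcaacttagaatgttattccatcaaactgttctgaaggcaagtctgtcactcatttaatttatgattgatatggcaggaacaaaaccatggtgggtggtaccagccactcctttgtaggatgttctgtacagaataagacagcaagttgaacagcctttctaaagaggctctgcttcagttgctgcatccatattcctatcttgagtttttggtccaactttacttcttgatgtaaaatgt
No annotated gene, chr1:193400305-193400604: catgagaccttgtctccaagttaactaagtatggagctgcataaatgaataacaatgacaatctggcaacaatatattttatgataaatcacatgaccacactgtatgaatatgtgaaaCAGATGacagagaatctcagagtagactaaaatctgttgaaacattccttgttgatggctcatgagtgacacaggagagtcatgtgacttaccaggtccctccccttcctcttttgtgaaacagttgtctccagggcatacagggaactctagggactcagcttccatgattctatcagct

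The 4921539H07Rik window held CAGATG at 2 places and CATCTG at 1, the chr1 window held CAGATG at 1 place, and the Gm10754 window held 1 CATCTG, 1 TAATTA and 1 match to the MEF2 motif, which is not in capitals. The Gm2115 and chr3:5451458-5451757 windows held none of the words searched. Among the central 300 bases of all 154762 tested regions on assembled chromosomes, 35.7% held CAGATG on either strand and 8.67% held TAATTA, so a match in a window is common and is given here as a description.

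CA1 nuclei made up 10.2% of the kept nuclei of MF1 (296 of 2899) and 10.7% of those of MF2 (240 of 2249). In HF1 they were 8.61% (299 of 3473) and in HF2 10.7% (311 of 2897). They were RNA-rich, with library medians of 14077.5 to 15974 UMIs against 5164.5 to 6006 in the other nuclei. The other nuclei with Slc17a7 and at most 1 Gad2 UMI had 9199 to 10173, and nuclei chosen on CA3 genes (defined below) 12596 to 13709. Median ATAC counts were 26435 to 40550.5 in CA1 nuclei, 15253 to 21926 in the other nuclei and 23891 to 36944 in the nuclei chosen on CA3 genes. Summed over nuclei, the CA1 libraries held 3826841 to 5419563 UMIs and 7804999 to 10253317 insertions. A deeper nucleus passes a rule on detected genes more easily, and how much depth set membership was not tested. Between 13 and 27 barcodes were shared by any pair of libraries, with 1 CA1 barcode shared by MF1 and MF2 and 1 by HF1 and HF2. A doublet score over 0.05 was given to 16.2% (MF1) to 21.9% (HF2) of CA1 nuclei and to 14.1 to 16.03% of the others; these nuclei were kept.

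The 8 rule genes chose the nuclei, so their RNA levels are a description with no test. Of 1481 kept nuclei with at least 3 of the 8, 52 lacked Slc17a7, 224 had more than 1 Prox1 UMI and 95 more than 1 Gad2 UMI. Gm10754, a long intergenic non-coding RNA on chr10, stood at 210.6, 237.5, 216.3 and 216.1 counts per 1000000 UMIs (CPM) in the CA1 nuclei of MF1, MF2, HF1 and HF2, against 25.3, 42.8, 31.97 and 46.5 in the other nuclei. All values given as 4 numbers below follow that order. 4921539H07Rik, also non-coding, was at 313.6, 360.3, 261.6 and 328.3 CPM against 27.2, 35.3, 26.1 and 30.8. In both genes every CA1 library lay above every library of other nuclei.

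Gm2115, a coding gene on chr7, was at 182.7, 158.4, 163.3 and 155.9 CPM in CA1 nuclei, against 21.3, 22.7, 25.8 and 21.0. Fibcd1, a chitin-binding membrane protein, was at 41.7, 38.4, 31.1 and 30.1 CPM against 6.15, 6.98, 5.48 and 6.82. Wfs1, an endoplasmic reticulum protein mutated in Wolfram syndrome and a common CA1 marker, was at 68.4, 45.7, 52.2 and 38.4 CPM against 10.8, 13.7, 12.7 and 8.47. The diets overlapped for Wfs1 and Gm2115, while both HF libraries lay under both MF libraries for Fibcd1.

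Wnt2, a secreted Wnt ligand, was the scarcest of the 8 in its own nuclei, at 16.7, 11.8, 13.9 and 12.6 CPM against 1.04 to 2.36. 1700007F19Rik, which overlaps 4921539H07Rik on the opposite strand, was at 50.7, 90.9, 64.9 and 65.9 CPM against 3.79 to 8.64. Pou3f1, a POU-domain transcription factor, was the least separated, at 69.8, 43.6, 49.6 and 38.2 CPM against 23.3, 16.6, 21.0 and 15.9. Between 17.7% (Wnt2) and 86.6% (Gm10754) of CA1 nuclei held a UMI of a given rule gene, beside 1.18% (Wnt2) to 11.4% (Pou3f1) of the shallower other nuclei.

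**Figure D1:**
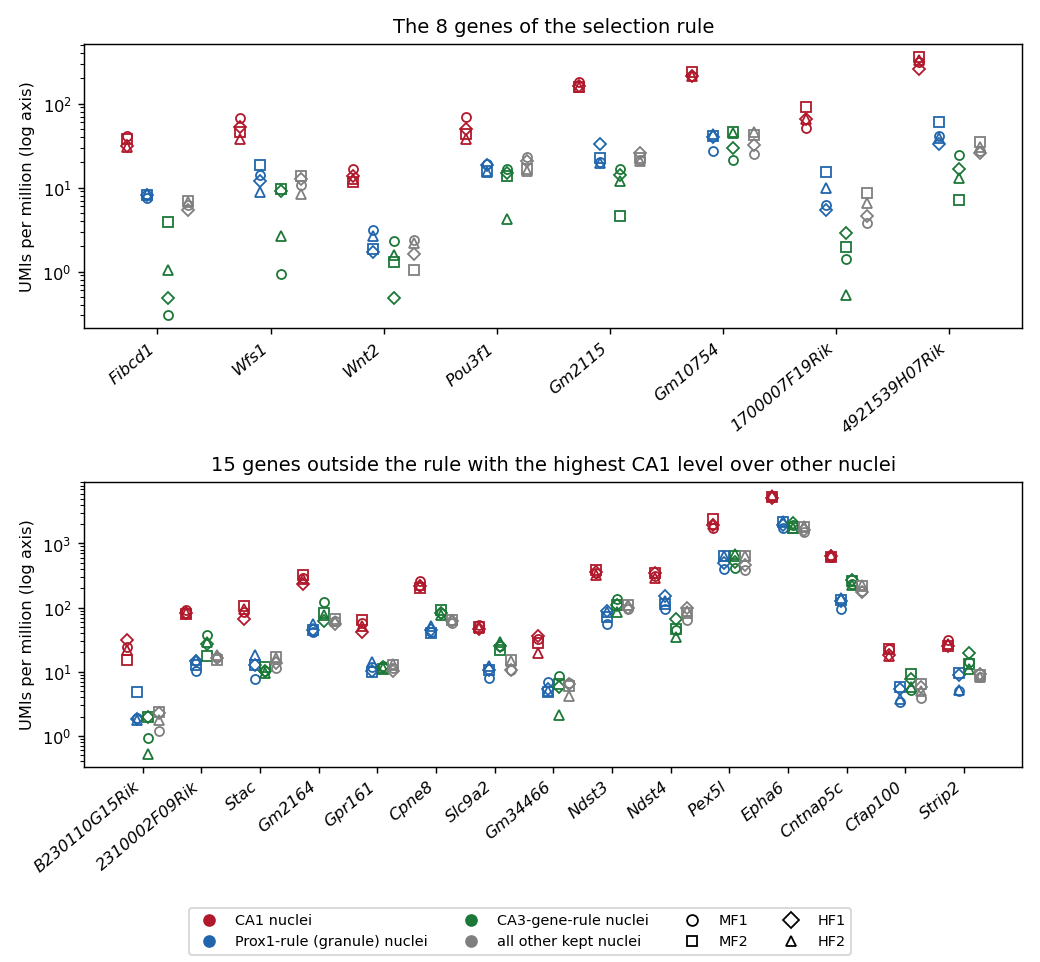
CPM (log axis) in each library, for the 8 genes of the rule (top) and the 15 other genes with the largest gap between CA1 and the other nuclei (bottom). Each point is 1 library, coloured by nuclei (CA1, Prox1-rich granule nuclei, nuclei chosen on CA3 genes, all other nuclei), and a value of 0 (Fibcd1 in the CA3-gene nuclei of MF1) is drawn at the foot of the axis. CA1 libraries sit above the libraries of all other nuclei in every gene shown.

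Nuclei on either side of the threshold had similar depth. Among nuclei that met the Slc17a7, Prox1 and Gad2 conditions, 380 had exactly 3 rule genes and a median of 16559 UMIs, and 456 had exactly 2 and a median of 15483.5. Depth was lower with fewer rule genes, at a median of 11761 UMIs with 1 and 7217.5 with none. Nuclei with all 8 rule genes numbered 14, and 1176 had none.

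Outside the rule, 15 genes showed the largest gap between the lowest CA1 library and the highest library of other nuclei. Among 7381 genes of at least 20 CPM in CA1 or in the other nuclei, 54 (0.732%) had every CA1 library at least 2-fold above every other library and 390 (5.28%) at least 2-fold below. Of the rule genes, 6 of the 7 at that level were in the first group (median log2 ratio 2.59), against a median of -0.17 over all 7381 genes. Since the rule picked nuclei on RNA, these counts describe the picked nuclei and were not tested.

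Stac, an adaptor protein of voltage-gated calcium channels, was at 84.5, 104.8, 65.5 and 96.7 CPM in CA1 and at 11.3 to 17.0 in the others. Gpr161, a ciliary G-protein-coupled receptor that restrains Hedgehog signalling, was at 58.0, 63.5, 42.1 and 52.2 CPM against 10.4 to 13.4. Both genes were several-fold apart in every library.

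Ndst3 and Ndst4 encode heparan sulfate N-deacetylase/N-sulfotransferases, which set the sulfation of heparan sulfate chains. Ndst3 was at 321.8 to 381.5 CPM in CA1 against 96.4 to 110.5, and Ndst4 at 287.1 to 348.0 against 64.5 to 98.7. Pex5l, which encodes TRIP8b, a partner of HCN channels, was at 1773 to 2384 CPM against 389.1 to 648.5. Epha6, an ephrin-A receptor, reached 5200 to 5687 CPM against 1518 to 1902. None of these ranges overlapped.

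The other members of the 15 were Cpne8 (copine), Slc9a2 (a sodium/proton exchanger), Cntnap5c (a contactin-associated protein), Cfap100, Strip2, and the less characterised genes B230110G15Rik, 2310002F09Rik, Gm2164 and Gm34466. Their log2 ratios of CA1 to other nuclei lay between 1.65 (Strip2) and 3.63 (B230110G15Rik, at 15.2 to 30.9 CPM in CA1). Gm2164 is antisense to Pou3f1 and shares 363 of its 128246 annotated bases with it, at the Pou3f1 start; only reads in that stretch cannot be told apart where the strand of counting is not given.

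Markers of CA1 that the rule did not use bore on the label in mixed ways. Of 14 such genes, 12 were at the described level and 3 (Spink8, Gpr161 and Ndst4) were 2-fold above in every library; the median log2 ratio was 1.15. Spink8, a Kazal-type protease inhibitor, was at 26.8 to 46.2 CPM against 8.47 to 13.2, and Man1a, a Golgi mannosidase, at 486.0 to 632.0 against 218.4 to 288.6. Calb1, the calcium buffer calbindin, was lower in CA1 nuclei (43.8, 43.9, 54.8 and 32.8 CPM) than in the others (69.1 to 90.0), which include granule nuclei at 119.5 to 161.2. Htr2c, a serotonin receptor, was at 47.0 to 76.3 CPM against 92.8 to 130.3.

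Many genes of other cells were low. Leaving out Gad2 and Prox1, which the rule itself held low, 4 of 4 measured inhibitory, 4 of 4 astrocyte, 5 of 5 oligodendrocyte, 3 of 4 granule and 2 of 4 microglial genes were at least 2-fold lower in every CA1 library. So were 2 of 3 genes of oligodendrocyte precursors, 3 of 6 of the subiculum and cortex and 1 of 2 of the choroid plexus, while 0 of 4 erythroid, 0 of 2 CA2 and 0 of 1 vascular genes were. Adarb2, an RNA-editing family gene on the inhibitory list, was at 33.2 to 43.6 CPM against 788.9 to 980.2. Granule nuclei, which are among the others, held it at 548.9 to 736.8 CPM, so that gap is not to inhibitory neurons alone. Nxph1, a neurexin ligand, was at 20.9 to 45.2 CPM against 351.8 to 458.3. Sema3c, a secreted semaphorin, was at 5.80 to 10.6 CPM against 86.2 to 113.5, with granule nuclei at 71.0 to 84.8.

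None of the 5 measured CA3 genes was 2-fold lower. Cpne4 stood at 131.5, 168.8, 178.1 and 213.1 CPM in CA1 against 391.9 to 414.3 in 545 excitatory nuclei chosen on at least 3 of 8 CA3 genes and at most 1 of the 8 rule genes. Dkk3, a secreted Wnt modulator, was at 94.5 to 122.9 CPM in CA1 and at 88.4 to 122.6 in those nuclei. Cpne4 and Dkk3 are among the 8 CA3 genes whose UMIs chose those nuclei, so their levels there are a description only. Of the CA1 nuclei with exactly 3 rule genes, 61.8% held at least 3 CA3-list genes, against 43.6% of those with 5 and 21.3% of gated nuclei with none, whose depth was lower (median 7217.5 UMIs). The comparison nuclei chosen on CA3 genes were no clean CA3 population either: they held the subiculum and cortex gene Tshz2 at 581.5 to 795.4 CPM and Htr2c at 238.1 CPM or more.

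Chromatin was not used to choose the nuclei beyond its total count, so accessibility was tested. Insertions in merged peak regions were summed over each gene and the stretch 2 kb upstream, per library and class, and CA1 was compared with the other nuclei of the same library by edgeR's quasi-likelihood test with Benjamini-Hochberg adjustment, at a false discovery rate (FDR) of 0.05 and 1.5-fold. Peaks were called library by library, so a region without a peak in a library was not counted there and its 0 in that library is not a measurement. On the scale of the edgeR fit, of 24155 genes 3999 (16.6%) were more accessible in CA1 and 2022 (8.37%) less. Of the 8 rule genes, 6 were called more accessible, with a median log2 ratio of 0.79 against -0.02 over all genes. Against only the other nuclei with Slc17a7 and at most 1 Gad2 UMI, 3479 genes were called in place of 6021.

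Gm10754 differed most of the 8. It had 122.7, 129.7, 96.6 and 114.8 insertions per 1000000 (IPM) in CA1 nuclei against 33.9, 35.6, 27.7 and 37.8 in the others, a log2 ratio of 1.99 ± 0.0537 (SE, n = 4 libraries; edgeR FDR 5.54e-31). Wnt2 had 16.4, 15, 14.1 and 14.8 IPM against 6.88, 7.68, 5.48 and 6.13 (log2 1.43 ± 0.137, edgeR FDR 2.12e-12). Every CA1 library was above every other library in both.

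Gm2115 (log2 1.40 ± 0.0665), 4921539H07Rik (0.87 ± 0.0773), Fibcd1 (0.71 ± 0.0586) and 1700007F19Rik (0.69 ± 0.109) were also called, with edgeR FDR from 1.57e-22 to 5.88e-07. 1700007F19Rik and 4921539H07Rik share regions, and 1700007F19Rik had a log2 of -0.15 when only regions within 2 kb of its start were counted. Pou3f1 was higher by less than 1.5-fold (0.53 ± 0.0728, edgeR FDR 2.12e-08). The same Pou3f1 insertions gave a log2 of 0.26 in the edgeR fit of single regions. Each fit scaled its sums separately, so ratios of genes and regions are not on 1 scale and need not match ratios of IPM. Against the pooled others, the gene fit placed ratios above those of IPM. Ptprm, for example, had 174.5 to 203.4 IPM in CA1 against 218.7 to 241.9, with a fitted log2 of -0.04. In IPM, the 1.5-fold limit was thus easier to reach upward than downward. Counts of genes called more and less accessible carry this limit. Among the called rule genes, Fibcd1 and 1700007F19Rik lay nearest the 1.5-fold limit.

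Wfs1 went the other way from its RNA against the pooled other nuclei. Its insertions were 29.9, 17.7, 35.4 and 24.5 IPM in CA1 nuclei and 42.1, 36.0, 44.8 and 38.1 in the others. The gene fit gave a log2 ratio of -0.39 ± 0.0814 (edgeR FDR 6.22e-05), short of 1.5-fold, and the region fit gave -0.74 at its start. Within each library the CA1 value was the lower, and the ranges met nowhere. The genes that excluded nuclei followed their RNA, with Prox1 at a log2 of -2.00 ± 0.1 and Gad2 at -1.06 ± 0.218, and Slc17a7 was higher by 0.78 ± 0.0522.

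Of the 14 CA1 markers outside the rule, 10 were called more accessible and 0 less (median log2 1.10). Spink8 had a log2 ratio of 1.90, Ndst4 of 1.58, Gpr161 of 1.49, Ccn3 (a matricellular protein) of 1.48 and Lefty1 (a Nodal antagonist) of 1.24. Calb1 (1.23), Mpped1 (1.19), Man1a (0.89) and Htr2c (0.73) were among the others called. Calb1 and Htr2c were therefore more accessible in CA1 nuclei while their RNA was lower than in the pooled other nuclei. Nnat, Etv1, Dcn and Ctxn3 were not called.

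The rule genes were also compared with single classes of nuclei. Against 2046 granule nuclei (Prox1 at 2 or more UMIs), 3356 of 23821 genes were higher (14.1%) and 1301 lower (5.46%), and 6 of 8 rule genes were called higher, with Pou3f1 (log2 0.97) in place of Fibcd1. Against the nuclei chosen on CA3 genes, which by that choice held few rule genes in RNA, 1402 of 23284 genes were higher (6.02%) and 659 lower (2.83%), and 4 of 8 rule genes were called: Wnt2, Pou3f1, Gm2115 and Gm10754. Wfs1 was not called in either (log2 -0.06, edgeR FDR 0.603, and 0.14, FDR 0.488). With nuclei of at least 2 rule genes as CA1, 392 genes were lower than in the nuclei chosen on CA3 genes in place of 659. Of the 14 markers outside the rule, 9 and 7 were called higher.

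Single regions showed where these differences lay. Of 253724 merged regions, 154783 had a peak in all 4 libraries, and 29482 (19%) of them were at least 2-fold more accessible in CA1 nuclei and 26659 (17.2%) less, by edgeR at FDR 0.05; against the other Slc17a7 nuclei alone the 2 directions gave 36861 in all, in place of 56141. The 8 rule genes held 44 such regions, counting a shared region for each gene, of which 21 were called higher and 1 lower. Gm10754 held 14 of the 21, among its 19 tested regions.

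Starts of transcription were higher in CA1 nuclei for 3 rule genes. The Gm10754 start had 5.65 to 7.61 IPM against 0.577 to 1.45 (log2 2.75 ± 0.234). The 4921539H07Rik start, printed above, had 11.8, 13.2, 12.7 and 9.95 against 2.65, 2.50, 2.15 and 2.56 (2.21 ± 0.159). A further start region over 4921539H07Rik and 1700007F19Rik (chr3:58163479-58164413) had a log2 of -0.60 ± 0.213 and was not called. The Wnt2 start had 10.4, 7.74, 8.19 and 7.22 against 2.51 to 3.67 (1.27 ± 0.169).

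The start regions of the other rule genes were not called higher. The only region of Wfs1 with a peak in all 4 libraries lies at its start and had 29.9, 17.7, 27.6 and 24.5 IPM in CA1 against 42.1, 36.0, 42.9 and 38.1 (log2 -0.74 ± 0.0761, edgeR FDR 1.06e-10). An upstream Wfs1 region with a peak in HF1 alone (chr5:36990220-36990906) had 7.84 IPM in CA1 against 1.93, and was not tested. Gm2115 had a log2 of 0.29 at its start and of 2.88 and 2.76 at a pair of introns, the first of which is printed above, beside an intron at -1.37. Fibcd1 had 0.60 at its start and 1 called region, in an intron at chr2:31826158-31826457 (centre; 1.23). All 5 tested regions of Prox1 and the only tested region of Gad2 were called lower, with log2 ratios of -2.33 and -1.68 at their starts.

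**Figure D2:**
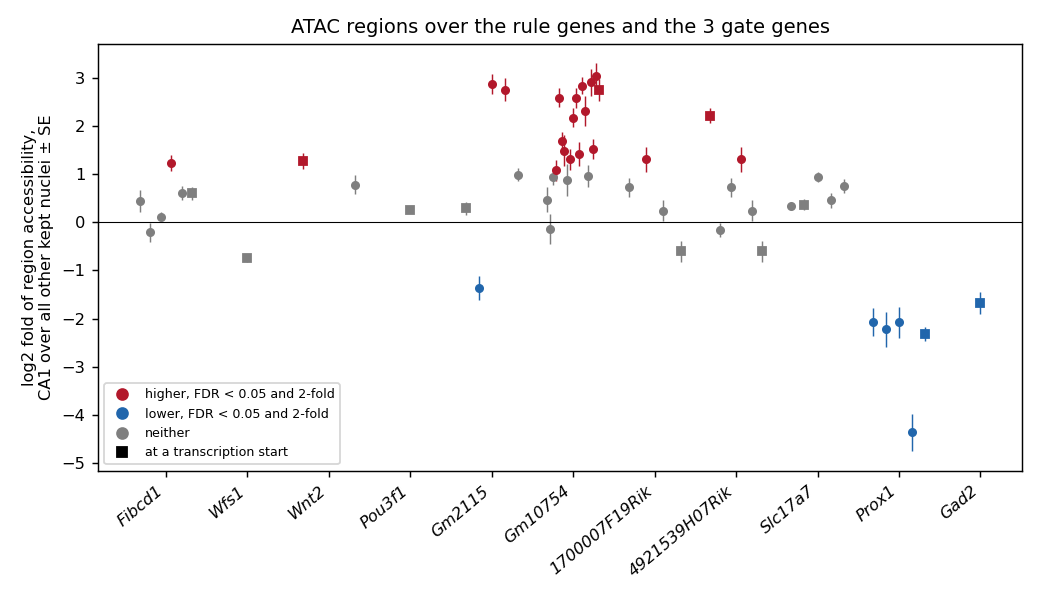
Log2 ratio of accessibility in CA1 to that in all other nuclei, with its standard error, for each region over the 8 rule genes and over Slc17a7, Prox1 and Gad2. Squares are regions at a transcription start, red regions were called higher, blue lower and grey neither. Gm10754 carries the largest block of red regions, and the start of Wfs1 lies at -0.74.

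The regions with the highest ratios had log2 values from 3.98 to 4.54, and 9 of these 10 lay outside annotated genes. The highest, printed above, had 4.61, 5.80, 5.42 and 5.75 IPM in CA1 nuclei against 0.302, 0.242, 0.180 and 0.169, with its centre 63725 bp from the start of 4930555M17Rik. The next, also printed, had 9.10, 6.77, 7.27 and 7.51 against 0.280 to 0.631, 30157 bp from the start of Camk1g, a calcium/calmodulin-dependent kinase. The one in a gene lay in an intron of Olah.

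In 3 of the 5 lowest regions no insertion fell in the CA1 nuclei of any library. If insertions are taken as independent, such a count allows up to 0.0857 IPM over the 4 libraries (3 counts, counting error only). The other nuclei lay 16.9-fold to 22.1-fold above that limit. Insertions from the same fragment are not independent, so the limit is too low and the folds are not firm minimums. These regions were also picked as the lowest on the same counts. The remaining 2 held 1 insertion, in HF2.

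Regions that were higher in CA1 nuclei sat less often at gene starts: 2.82% of them covered a transcription start, against 12.7% of all tested regions and 9.8% of those lower in CA1. Introns held 43.2% of the higher regions and stretches with no annotated gene 43.4%, against 40.6% and 35.9% of all. In the central 300 bases the CAGATG E-box was present in 46.3% of higher and 30.3% of lower regions, against 35.7% of all. TGACTCA, the AP-1 site, was in 13.2% of higher regions against 9.31% of all, and the octamer ATGCAAAT, bound by POU factors, in 4.11% against 2.46%. The core of the CTCF motif was in 0.244% of higher regions, 0.975% of lower regions and 4.11% of all.

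Higher regions were also poorer in G and C (median 43.7% against 48.0% of all and 49.3% of lower regions). Without regions at transcription starts, CAGATG was in 46.5% of higher, 31.7% of lower and 38.5% of all regions, and the CTCF core in 0.23%, 0.919% and 4.28%. TGACGTCA, the cAMP response element, was in 0.244% of all higher regions against 0.637% of all tested, and in 0.248% against 0.347% without starts. GCGTGGGCG, the Egr site, was in 0.0611% against 0.236%, and in 0.0593% against 0.119% without starts. With starts included, TAATTA was in 10.3% of higher, 10.1% of lower and 8.67% of all regions, and the MEF2 motif in 1.17%, 0.949% and 1.11%. Without starts, TAATTA was in 10.4% of higher, 10.9% of lower and 9.55% of all regions. These shares are descriptions with no test, and base composition was not matched.

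Members were also scored on regions that their own library had not helped to call. For each nucleus, the share of its insertions that fell in regions called higher in CA1 was taken from a fit without its own library. The CA1 medians were 24.2, 24.3, 21.2 and 22.8%. Granule nuclei had medians of 6.29, 6.14, 5.28 and 6.66%, the nuclei chosen on CA3 genes 12.9, 13.1, 11.5 and 12.7%, and nuclei without Slc17a7 1.67 to 2.05%. Between 85.2 and 90.8% of CA1 nuclei lay above the 95th percentile of the granule nuclei of their library. So did 14.7 to 31.4% of the nuclei chosen on CA3 genes. Of gated nuclei with 2 rule genes, which were not members, 48.9 to 74.8% did. Of nuclei with 3 or more rule genes that failed another condition, 45.6 to 60.4% did.

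The share followed the number of rule genes detected. In nuclei that met the other conditions, its medians ran from 5.27 to 7.21% with no rule gene and 10.7 to 13.9% with 1, to 13.9 to 17.4% with 2 and 17.5 to 19.9% with 3. With 5 rule genes it was 23.8 to 25.9% and with 6 it was 24.3 to 26.7%, which overlap. Nuclei with 3 or more rule genes that failed the Slc17a7, Prox1 or Gad2 condition had medians of 14.3 to 17.5%.

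**Figure D3:**
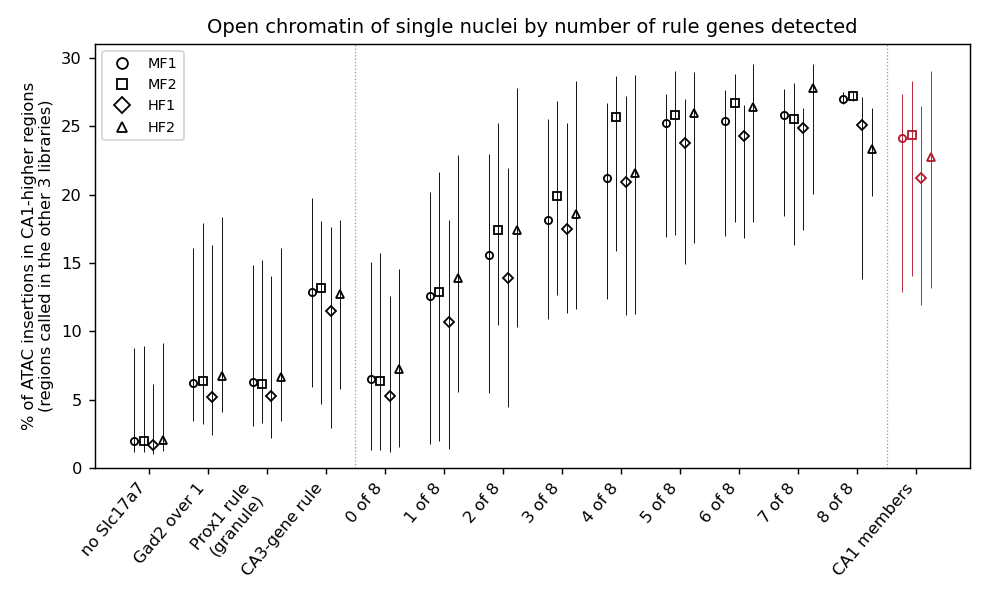
Percent of a nucleus's insertions in regions that were higher in CA1 nuclei of the other 3 libraries, as library medians with bars from the 5th to the 95th percentile of nuclei. Classes of nuclei are on the left and nuclei by number of rule genes on the right; CA1 medians lie between 21.2 and 24.3% and granule medians between 5.28 and 6.66%.

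Most genes that were high in CA1 RNA were also more accessible. Of the 52 genes at least 2-fold above in RNA and tested in chromatin, 46 (88.5%) were called more accessible, 6 were not called and 0 were less accessible. The 52 include 6 rule genes, whose RNA chose the nuclei. All of these 6 but Wfs1 were called. Among genes on neither side in RNA, 9.18% were called more accessible. Of the 15 genes above, 14 were called, with log2 ratios from 0.73 (Pex5l) to 2.18 (Gm34466): Stac had 1.88 ± 0.0649, Ndst3 1.85 ± 0.0654, 2310002F09Rik 1.72 ± 0.0562 and Epha6 1.08 ± 0.037. B230110G15Rik was not called; its only region had a peak in HF2 alone (26 insertions in CA1 and 52 in the other nuclei), and insertions there were not counted in the other 3 libraries.

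Of the RNA-low genes with a chromatin value, 83 (21.4%) were called less accessible, 16 (4.13%) more and 288 (74.4%) neither, beside 1.28% called less accessible among genes on neither side in RNA. Of the 10 genes with the largest drop, which included Adarb2, Nxph1, Sema3c and Btbd11, none with a fit was called.

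**Figure D4:**
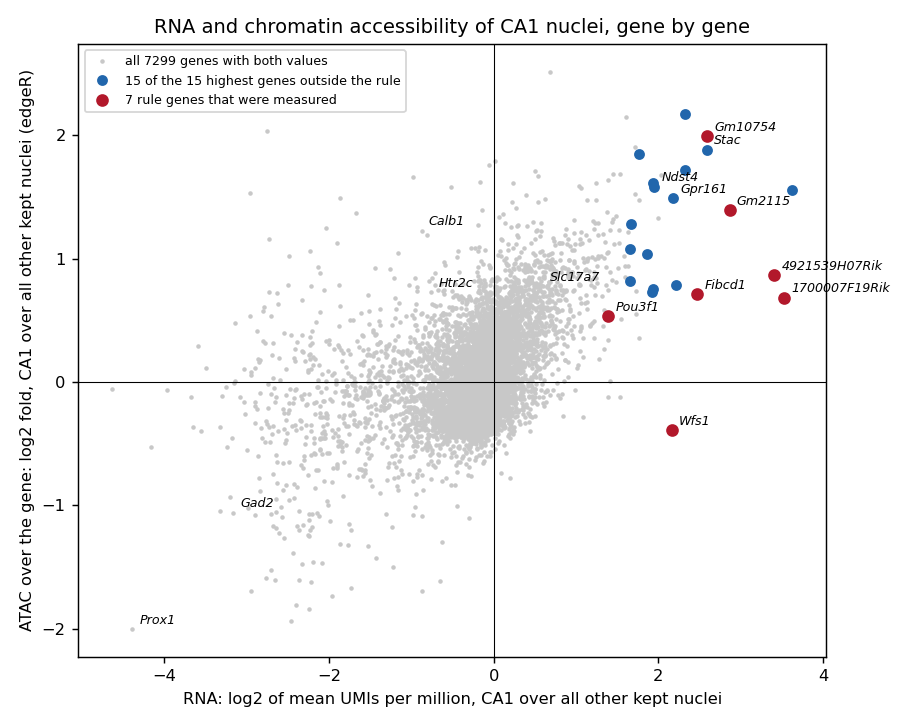
Log2 ratio of CA1 to all other nuclei in RNA (horizontal) and in gene accessibility (vertical), 1 point a gene, for the genes with both. Blue points are the 15 highest genes outside the rule and red points the 7 rule genes measured; Wfs1 is the red point under 0 on the vertical axis.

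By accessibility alone the 10 leading genes were scarcely transcribed ones with few regions. Olfr1136, an olfactory receptor gene, led with 4.74 to 6.05 IPM in CA1 against 0.302 to 0.361 (log2 4.19 ± 0.315), before 4931417E11Rik (3.82), the peptidase Naalad2 (3.59), the epidermal gene Ivl (3.53) and 4930432O09Rik (3.47). 4932415D10Rik, Olfr1181, Igkv20-101-2, Cnga1 and Gm14010 had log2 ratios from 3.30 to 3.38. At the other end stood Olfr314, Gm33472, 1700111N16Rik, BC147527, Gm29663, Tmco2, 6430553K19Rik, Olfr323, Gbp10 and Nccrp1. They had so few CA1 insertions (0 to 6 for Tmco2) that their fitted ratios are not given. Of these, Olfr314, Gm33472, Gbp10 and Nccrp1 were not counted in every library. Nor, among the leading genes, were 4931417E11Rik (not counted in HF1) and Naalad2, Ivl and Igkv20-101-2 (not counted in MF1). Gm29663 had a log2 of 0.31 when regions were limited to 2 kb around its start.

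Genes of the synapse were more accessible in part, and their RNA was seldom 2-fold apart from the pooled others. The lists below are read beside the shares over all genes called more accessible, 16.6% against the pooled others, 14.1% against granule nuclei and 6.02% against the nuclei chosen on CA3 genes, and called less accessible, 8.37, 5.46 and 2.83%. Of 20 glutamate receptor genes, 8 were called more accessible and 0 less (median log2 0.38), among them the AMPA subunits Gria1 (1.17) and Gria3 (0.71), the NMDA subunits Grin2a (1.16) and Grin2b (0.81), and the metabotropic receptors Grm5 (0.88), Grm7 (0.86) and Grm8 (0.74). In RNA, Grin2a was at 2349 to 2856 CPM against 1220 to 1645, under the 2-fold limit, and the kainate subunits Grik1 (35.7 to 78.4 against 227.5 to 322.4) and Grik3 (17.5 to 23.1 against 59.6 to 88.7) were 2-fold lower. Against granule nuclei 2 of the 20 were called more accessible, a smaller share than over all genes, and 1 less, and against the nuclei chosen on CA3 genes 3 were more and 0 less.

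Of 12 GABA-A receptor genes, 8 were called more accessible and 0 less (median 0.73), with Gabrg3 at 1.12 and Gabra5, the subunit of extrasynaptic receptors in CA1, at 0.98. Against granule nuclei and the nuclei chosen on CA3 genes 2 and 2 of the 12 were called more accessible and 0 less, and none of the 11 measured was 2-fold apart in RNA. Of 29 genes of the postsynaptic density and plasticity kinases, 11 were called more accessible and 0 less (median 0.52), but 3 against granule nuclei and 1 against the nuclei chosen on CA3 genes, shares under those of all genes, with 0 less in either. Prkcb, a conventional protein kinase C, was at 739.1 to 890.6 CPM against 294.3 to 349.4, with an accessibility log2 of 1.05 ± 0.0332. Rasgrf2, a Ras exchange factor, was at 17.5 to 26.6 CPM against 114.5 to 143.0. Camk2a, the CaMKII alpha subunit, was more accessible at 1.04 without a 2-fold gap in RNA.

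Of 33 potassium and HCN channel genes, 15 were called more accessible and 0 less (median 0.48), and 5 and 3 against the granule and CA3-gene nuclei, again with 0 less. Kcnh7, an ether-a-go-go-related channel, had an accessibility log2 of 1.24 and RNA at 1657 to 1961 CPM against 679.1 to 872.5. The channel partner Kcnip1 was 2-fold lower in RNA, at 11 to 17.3 CPM against 64.5 to 79.8. Of 23 calcium channel and store genes, 9 were called more accessible and 0 less (median 0.38; 3 and 1 more and 0 less against the granule and CA3-gene nuclei), led by the ryanodine receptor Ryr3 (log2 1.32 ± 0.036, edgeR FDR 5.54e-31), whose RNA was at 1155 to 1383 CPM against 422.0 to 537.8. Itpr2, an inositol trisphosphate receptor, was lower in RNA (22.4 to 43.9 CPM against 89.1 to 115.9).

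Of 51 guidance and adhesion genes, 19 were called more accessible and 0 less (median 0.39), with the cadherin Cdh12 at 1.29 and the latrophilin Adgrl2 at 0.98. Against granule nuclei 9 were called more accessible and 3 less, and against the nuclei chosen on CA3 genes 5 and 0. Sema3e, a secreted semaphorin, was at 300.7 to 368.5 CPM against 98.9 to 130.4 and had an accessibility log2 of 0.94, while Sema5a was at 46.0 to 75.1 CPM against 402.7 to 459.8. Of 35 transcription factor genes, 7 were called more accessible and 1, Prox1, less, beside 16.6 and 8.37% of all genes. Among the 7 were Fezf2 (1.23), Lmo3 (1.13), Neurod6 (1.01), Foxp1 (0.75), Bcl11b (0.68) and Bcl11a (0.60). Against granule nuclei 3 of the 35 were called more accessible and 4 less (median -0.09), and against the nuclei chosen on CA3 genes 4 and 0. Neurod6, a bHLH factor that binds E-boxes, was at 112.9 to 178.7 CPM against 46.3 to 74.2, and Mef2c at 87.5 to 130.6 against 328.5 to 413.7. Of 13 calcium-binding protein genes, 5 were called more accessible, among them Hpca (hippocalcin, 0.81) and Nrgn (neurogranin, 0.61), and 1, Pvalb (-0.64), less; against the granule nuclei, and likewise against the CA3-gene nuclei, 1 was called more accessible and 1 less.

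Of 36 folate and one-carbon genes, which carry the pathway that the diet feeds, 1 was called more accessible in CA1 than in the other nuclei and 3 less (median log2 -0.10). All genes were called at 16.6 and 8.37%, so the share called less accessible was near that of all genes. Against granule nuclei 1 was called in each direction and against the nuclei chosen on CA3 genes 1 was called more accessible, and 0 of the 12 measured were 2-fold apart in RNA (median -0.13). The gene called higher was Ftcd, a histidine-degrading folate enzyme whose RNA was at most 0.18 CPM in CA1, and the genes called lower were Folr2 (a folate receptor), Cbs (cystathionine beta-synthase, -0.90) and Amt (a glycine cleavage enzyme, -0.81).

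CA1 nuclei also varied among themselves. After each nucleus was thinned to 5000 UMIs (238 to 311 nuclei a library), the variance over the mean had a median of 1.11 to 1.13 over 3435 genes. It was highest for the nuclear RNA Malat1 (23.5 to 31.1) and for genes of cell-surface proteins. These were Dpp10 (20.8 to 29.4), a partner of Kv4 channels, Lrrtm4 (20.4 to 28.5), a synaptic organiser, and Sgcz (14.9 to 26.6). Kcnip4 (12.9 to 15.8), Ptprd (11.1 to 12.9) and Pcdh15 (9.56 to 16) followed, each in all 4 libraries. Erbb4 (7.30 to 21.6), an inhibitory-neuron gene, was also among the 25 most variable.

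Diet was not part of the rule. No gene passed the test between HF and MF in CA1 nuclei: of 13585 tested by edgeR on summed UMIs, 0 passed FDR 0.05 and 1.2-fold (0.0%), the smallest FDR was 1.0, and 276 had an unadjusted p under 0.05, 196 of them higher in HF. DESeq2 also called 0. Of the 13585, 7012 (51.6%) had a positive log2 difference, HF over MF (median 0.008). With 2 libraries a diet, 3476 genes (25.6%) had libraries that did not overlap. Without MF1 the same test called 2 genes, without MF2 19, without HF1 1 and without HF2 1, in each case with 1 library in a diet, whose spread was taken from the other.

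The 8 rule genes are described between the diets without a test, since their UMIs chose the nuclei. Their summed level in CA1 nuclei was 954.2, 986.7, 852.8 and 885.3 CPM, lower in both HF libraries. Fibcd1 was the only one of them whose diets did not overlap (41.7, 38.4, 31.1 and 30.1 CPM). Slc17a7, which the rule also required, did not overlap either (353.3, 256.6, 245.5 and 243.0 CPM).

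The genes with the smallest p were mostly low in CA1 nuclei or genes of other cells. Unc13c, a presynaptic priming factor, was at 14.3, 20.1, 33.9 and 33.2 CPM, higher in both HF libraries (log2 1.03 ± 0.228, p 0.00111, edgeR FDR 1.0), and at 41.3 to 52.0 in the other nuclei. Mbp, myelin basic protein, was at 139.2, 168.8, 244.0 and 307.0 CPM (0.90 ± 0.206, edgeR FDR 1.0). Ptgds, prostaglandin D synthase, was at 15.3, 23.3, 32.4 and 59.1 CPM.

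E330020D12Rik had 1, 1, 14 and 21 UMIs in the CA1 sums. Limd1, a LIM-domain protein, was at 15.9, 14.4, 7.86 and 3.51 CPM and was the only one of the 10 that was lower in HF. Cntnap4, Vwc2l, Maml3, Bmpr1b and Mob3b, with log2 differences of 0.71 to 1.65, made up the 10. All had an edgeR FDR of 1.0 as tested. With no filter on low counts 6 of the 10 passed (E330020D12Rik at FDR 0.00874, Unc13c 0.0166, Mbp 0.0119, Mob3b 0.0185, Limd1 0.0143 and Ptgds 1.76e-05), so these calls change with the filter. Without MF2, Unc13c (FDR 0.0173) and Ptgds (7.24e-05) passed.

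Transcripts of other cell types in the CA1 sums varied between the libraries, and the sums of the oligodendrocyte and choroid plexus genes, like the rule genes and no other of 24 lists, did not overlap between the diets; single genes did so in 25.6% of cases. The 5 oligodendrocyte genes summed to 494.3, 431.4, 607.3 and 712.1 CPM in CA1 nuclei (exact permutation test, two-sided, p = 0.333, the smallest that 2 libraries against 2 allow, adjusted 1.0), and to 2163, 1751, 2380 and 1895 CPM in the other nuclei. All 5 had a positive log2 difference, HF over MF (median 0.61), 4 of them at an unadjusted p under 0.05, beside 51.6% positive over all genes. The 6 astrocyte genes were all positive too (median 0.44, summed 224.1, 336.3, 357.9 and 290.6 CPM), with 1 at an unadjusted p under 0.05. This lean was not limited to genes of other cells. Positive differences were held by 17 of 20 glutamate receptor, 10 of 12 GABA-A receptor and 37 of 51 guidance and adhesion genes. Among postsynaptic genes 9 of 29 were positive, and among calcium channel and store genes 10 of 23. Erythroid genes summed to 652.6, 166.5, 351.2 and 204.4 CPM and Ttr, the choroid plexus transthyretin, stood at 4.07, 0, 50.1 and 1.48, with the choroid plexus genes Folr1 and Otx2 at 0 in every CA1 sum. The 6 choroid plexus genes together summed to 52.9, 42.3, 93.2 and 58.7 CPM (exact permutation test, p = 0.333, adjusted 1.0), but without Ttr, a sum added after the values were seen, to 48.8, 42.3, 43.0 and 57.2 CPM, which overlapped. Of 80 ribosomal protein genes 13 had a positive log2 difference (median -0.12), a smaller share than over all genes, and their CA1 sums of 7705, 5563, 7585 and 4178 CPM overlapped. The part of transcripts of other cell types in the diet values was not tested.

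No folate or one-carbon gene passed the diet test in CA1 nuclei. Of 28 tested by edgeR, 0 had an unadjusted p under 0.05 (DESeq2 called 0 over all genes), 17 had a positive log2 difference (median 0.07) beside 51.6% of all genes, and their sums were 1200, 1126, 1129 and 1175 CPM (exact permutation p = 1.0).

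Accessibility gave 0 regions between the diets of 138568 tested by edgeR (0.0%), with 5993 at an unadjusted p under 0.05, a smallest FDR of 0.213 and 0 by DESeq2. The region with that FDR, chr5:118359994-118361164, had 6.53, 8.59, 2.65 and 1.07 IPM. Leaving out a library gave 7 (MF1), 49 (MF2), 27 (HF1) or 2 (HF2) regions.

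**Figure D5:**
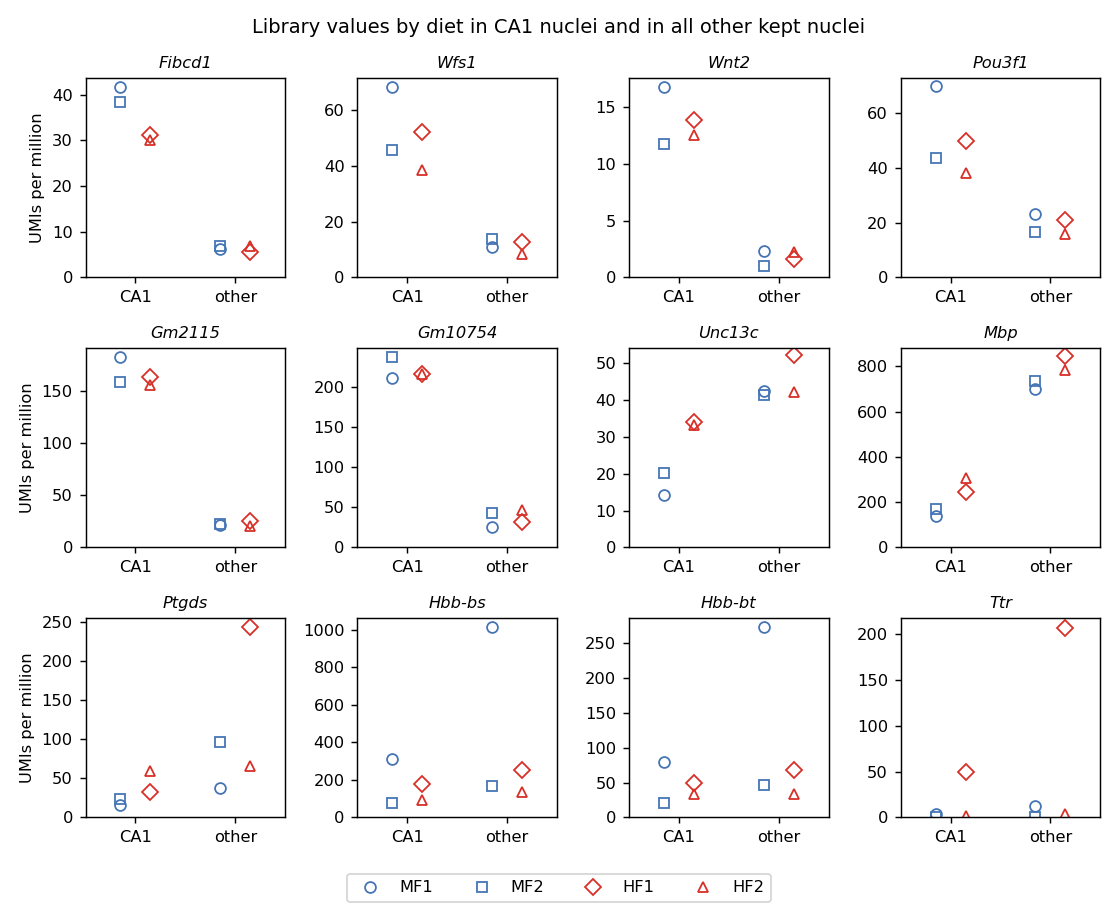
CPM in each library for 12 genes, in CA1 nuclei and in all other nuclei, with MF libraries in blue and HF libraries in red on axes that start at 0. Rule genes overlap between the diets except Fibcd1, Mbp is higher in both HF libraries of CA1 nuclei, and MF1 stands highest for Hbb-bs and Hbb-bt.

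A test of the class by diet term asked whether the diet difference in CA1 nuclei differed from that in the other nuclei. Of 16904 genes, 2 passed edgeR at FDR 0.05 (0.0118%), Hbb-bt and Hbb-bs, both beta-globins of red blood cells, and 831 had an unadjusted p under 0.05. Hbb-bt was at 79.0, 21.2, 49.6 and 32.8 CPM in CA1 nuclei and at 272.7, 46.3, 68.5 and 34.2 in the others, so MF1 was the highest library in both. The term, which is the log2 difference of HF over MF in CA1 nuclei less that in the others, was 1.34 ± 0.176 (edgeR FDR 0.0197) for Hbb-bt and 0.97 ± 0.139 (0.0296) for Hbb-bs, and both were below 0 when at least 4 rule genes were required (-0.08 and -0.10). Without MF1 27 genes passed, without MF2 75, without HF1 89 and without HF2 37, each with 1 library in a diet.

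The share of CA1 nuclei was 10.4 ± 0.326% in MF and 9.67 ± 1.5% in HF (SD, n = 2 libraries each), a difference of -0.769 percentage points (exact permutation test, two-sided, p = 1.0). HF1 decided its sign: without it the difference was 0.294 points.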

How the data were processed

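The authors deposited filtered matrices of raw counts per barcode, made with Cell Ranger ARC 2.0.1 on mm10 from 4 single-nucleus multiome libraries: UMI counts per gene and Tn5 insertion counts per ATAC peak, with peaks called separately in each library. Cell Ranger and Seurat are listed in the submitters' processing notes without a version. Feature symbols were matched to GENCODE M21 (GRCm38, the build of mm10): 31372 of 32285 had 1 match, 52 several and 861 none. The study's filters on nucleosome signal and transcription start enrichment were not applied, and nuclei with a Scrublet score over 0.05 (expected rate 0.03) were kept.

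The members and all gene lists were chosen with earlier results of these data known. Counts were summed per library and class; peaks were merged across libraries; gene accessibility is the sum over regions touching the gene or 2 kb upstream. edgeR 4.0.16 (R 4.3.3; TMM, filterByExpr, quasi-likelihood) compared CA1 with other nuclei with library as a block, and HF with MF by diet alone, with Benjamini-Hochberg adjustment. DESeq2 1.42.0 was an alternative. Calls needed an FDR under 0.05 and 1.5-fold (genes), 2-fold (regions) or 1.2-fold (diet, RNA). CPM are counts per 1000000 UMIs of the summed nuclei, and IPM insertions per 1000000 ATAC counts. Word matches, left-out shares and thinned counts used Python 3.11.15, NumPy 2.4.6, pandas 2.3.3 and SciPy 1.17.1, and doublet scores Scanpy 1.11.5. The pipeline was tested on simulated data.

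Genes were named by rule: the 8 rule genes, Slc17a7, Prox1 and Gad2; the 15 genes outside the rule (at least 20 CPM in CA1) with the highest ratio of the lowest CA1 library to the highest other library; the 10 called genes of highest and of lowest accessibility ratio with at least 200 insertions; the 10 highest and 5 lowest regions; the 10 smallest p between diets; and list members that were called or at the ends of the range. The ribosomal protein list was added by name pattern after the data were seen. RNA of CA1 against other nuclei was described without a test, because the rule used it. The exact permutation test of 2 libraries against 2 cannot give a p under 0.333. Intervals and floors cover counting error only. Some genes that the rule names are not reported here.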

Additional observations from a re-analysis of the deposited data

Results flagged for a closer look

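Hbb-bt and Hbb-bs were called for a diet difference in CA1 nuclei unlike that in the other nuclei, by the class by diet term of edgeR, and the calls did not hold under every alternative. The term was 1.344 (FDR 0.0197) for Hbb-bt and 0.968 (FDR 0.0296) for Hbb-bs on the log2 scale. Hbb-bs was at 312.0 and 76.3 CPM in the CA1 nuclei of MF1 and MF2 and at 178.3 and 93.2 in HF1 and HF2, against 1014, 168.9, 255.3 and 137.4 in the other nuclei. In CA1 nuclei alone the HF over MF difference was -0.22 ± 0.419 for Hbb-bt and -0.45 for Hbb-bs, both with an edgeR FDR of 1.0. Without MF1 the term was 0.854 for Hbb-bt and 0.624 for Hbb-bs. With at least 2 rule genes neither was called (FDR 0.236 and 0.344), nor with at least 4 (both 0.988) or with the replicate block (both 1.0).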

How the results depend on the processing

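Total counts of accessible genes and regions called in CA1 nuclei stayed within 1.5 times under all alternatives but 1: with only other Slc17a7 nuclei as the comparison they were 3479 genes (2424 higher, 1055 lower) and 36861 regions. By direction, the 659 genes lower than in the nuclei chosen on CA3 genes were also 392 with at least 2 rule genes and 378 without the library block. The counts between diets rest on 2 libraries a group. With no filter on low counts 16 genes were called between the diets, and leaving out 1 library gave 1 to 19 genes and 2 to 49 regions. With at least 2 rule genes 3 regions were called. The class by diet term called 6 genes with at least 4 rule genes, 0 with at least 2, 22 without high doublet scores, 63 with no filter, and 27 to 89 without 1 library; DESeq2 called 2.

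The same replicate number in MF and HF is not stated to mark a litter or day. Deviations of same-numbered libraries correlated at 0.281 in CA1 nuclei and 0.298 in the others, across genes, which with 2 pairs does not show pairing. With the replicate block 5 genes (Ttr, Mbp, Ptgds, Cnksr3 and Tmeff2) and 10 regions were called between diets, and the class by diet term called 0, so that Hbb-bt and Hbb-bs were not called. Without the library block the counts of CA1 against other nuclei were 4947 genes, 3794 against granule nuclei, 1430 against the nuclei chosen on CA3 genes, and 56041 regions.

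Some values changed sign. The share difference was 0.298 points among Slc17a7 nuclei and ran from -1.83 to 0.294 points when 1 library was left out. With only Slc17a7 nuclei as others, Dcn had -0.24, Ctxn3 -0.02, and regions in Fibcd1 (chr2:31822496), 4921539H07Rik (chr3:58122412) and Slc17a7 (chr7:45163575) had -0.130, 0.106 and -0.053. With at least 4 rule genes Dcn had -0.001, and -0.12 against the nuclei chosen on CA3 genes (from -0.018 without MF1 to 0.365 without HF1). Within 2 kb of the start, 1700007F19Rik had -0.15, Gm29663 0.31 and Etv1 -0.004. Wfs1 against granule nuclei had 0.03 without high doublet scores and from -0.184 (HF1) to 0.049 (MF2) without 1 library. The diet differences ran from -1.265 without MF2 to 0.482 without MF1 for Hba-a1, -1.307 to 0.592 for Hba-a2, -1.114 to 0.808 for Hbb-bs and -0.845 to 0.944 for Hbb-bt, and from -0.438 without HF1 to 9.929 without MF1 for Ttr, which had 0 UMIs in MF2, so that the last value depends on the prior count. Requiring at least 4 rule genes gave a class by diet term of -0.083 for Hbb-bt and -0.098 for Hbb-bs. The cause of these changes was not tested.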
